A study of Homo sapiens with 18 samples.

Results

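The net change from human embryonic stem (ES) cells to neural epithelium was measured by comparing 3 RNA pools of undifferentiated H9 cells with 3 pools of H9-derived cells at day 17 of neural differentiation to which no bFGF had been added. H9 is an established human ES cell line. These 6 arrays of a series of 18 were chosen by their labels alone, and each gave 1 linear signal for each of 54675 probe sets of total RNA. The ES pools combined passages 27, 28 and 31 (pool 1), 24, 25 and 26 (pool 2) and 26, 28 and 29 (pool 3); the labels call the day 17 pools definitive neural epithelial and the series title calls that stage neural rosettes. The stages between were 3 pools of day 6 embryoid bodies, grown in suspension, and 3 pools of untreated day 10 cells, which the labels call primitive neural epithelial. A further 3 day 17 pools had received bFGF at 20 ng/ml from day 6. The series also held 3 day 10 pools given bFGF from day 6, at 20 ug/ml by their labels. These entered the shared estimate of spread and the choice of probe sets. All groups came from 1 cell line. The labels do not say that the pools of a group came from separate cultures, and ES pool 1 carries no pool number of its own. The spread behind the p-values is therefore that among these pools and may be technical. The title of ES pool 1 names an RNA preparation, Trizol with RNeasy, which no other title does. Whether its preparation differed from that of the other pools was not tested.

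ES cells keep their undifferentiated state through a network of transcription factors around NANOG, and they sit in an epithelium held together by E-cadherin. When ES cells turn into neural epithelium they lose that network, exchange E-cadherin for N-cadherin, and form rosettes of radial progenitors in which Notch signalling holds cells back from becoming neurons. The first neural tissue formed without added patterning factors usually has the regional genes of the forebrain.

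Of 19775 genes, each represented by 1 probe set, 3989 (20.2%) were called between day 17 and ES cells at an adjusted p under 0.05 (limma, Benjamini-Hochberg). They comprised 2314 genes higher at day 17 (11.7% of all genes) and 1675 lower (8.47%), and these shares are the background for every count below. At least 8-fold differences on the log2(signal + 16) scale were found for 161 of the higher and 84 of the lower genes. All log2 differences are day 17 minus ES on that scale, which understates the change of dim genes, and their median over all genes was 0.09. The ES and day 17 pools did not overlap for 33.6% of all genes. A blocked fit, with the pool number as a term, called 3228 genes higher and 2584 lower. A fit of the 6 compared arrays alone, without the other groups, called 1841 higher and 1179 lower. In bulk RNA, fewer cells of a type and less RNA per cell cannot be told apart.

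**Figure D1:**
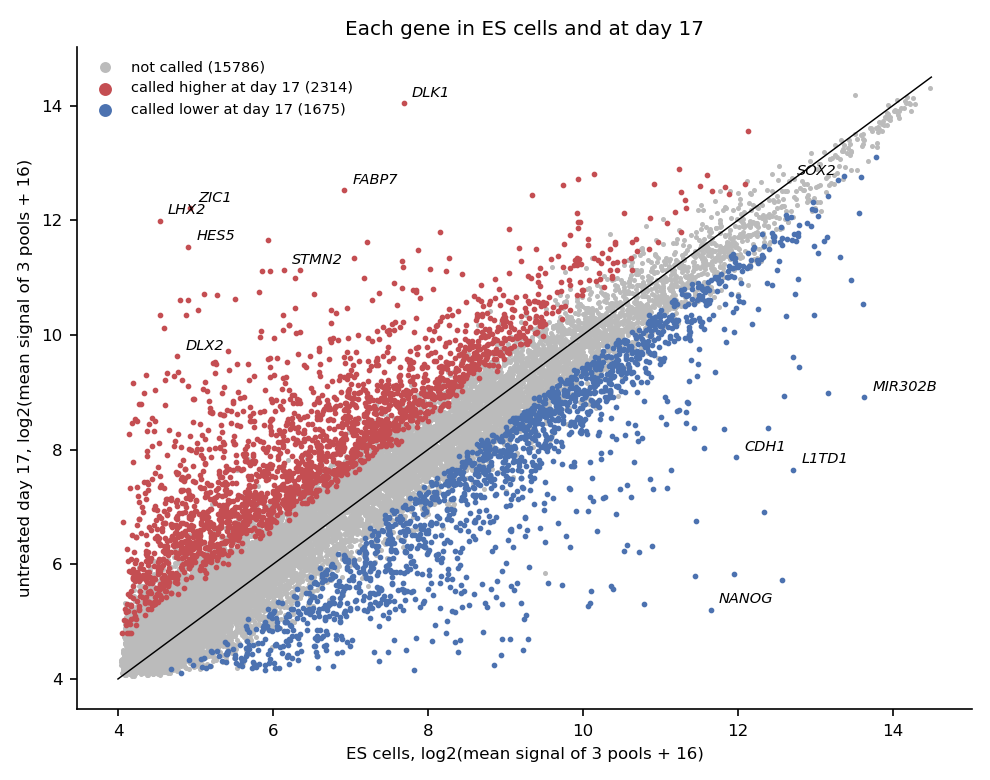
Each of 19775 genes by its mean signal in 3 ES pools (x axis) and in 3 untreated day 17 pools (y axis), both as log2(mean signal + 16), with the line of equality; 2314 genes called higher at day 17 are red, 1675 called lower are blue and the rest are grey. LHX2, ZIC1 and HES5 lie farthest above the line and NANOG far below it, while SOX2 lies on it.

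The arrays had been scaled to a common trimmed mean, but their low signals differed. The median signal was 48.7 to 50.8 on the pool 2 arrays of the 4 neuroepithelial groups, day 17 pool 2 among them, and 25.2 to 32.7 on the other 14 arrays. The ratio of 3' to 5' control signals of ACTB, a measure of RNA integrity, was 2.27 in ES pool 2 and 2.30 in day 17 pool 2, against 1.27 to 1.75 in the other 4 pools compared. Without the 4 arrays of raised low signals, 2226 genes were called higher and 1540 lower, and the median of all genes was 0.02. Without them, the medians of 12 of the 33 gene lists described here moved by more than 1.5 times, and 4 of those turned sign.

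The 4 marker genes separated the groups in the direction of their labels. NANOG, the pluripotency factor, had signals of 2898, 3079.6 and 3632 in ES pools 1 to 3 and 23.6, 5.04 and 34.4 at day 17. The ES pools were all high and the day 17 pools all near the bottom of the scale, a log2 difference of -6.53 (SE 0.31, adjusted p = 5.40e-10). FABP7, the brain fatty acid-binding protein of radial glia, measured 90.3, 87.8 and 138 in ES pools 1 to 3 and 7162, 4926 and 5630.1 at day 17. It rose by 5.61 (SE 0.26, adjusted p = 4.51e-10), with no overlap between the groups.

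STMN2, a microtubule regulator of growing axons, measured 65.02, 51.7 and 46.6 in ES pools 1 to 3 and 2368, 2360.5 and 1947 at day 17. The 3 day 17 pools lay close together and far above the ES pools, a rise of 4.99 (SE 0.35, adjusted p = 2.90e-08). DLX2, a homeobox factor of ventral forebrain precursors, measured 3.68, 12.2 and 17.8 in ES pools 1 to 3 and 678, 812 and 839 at day 17, a rise of 4.89 (SE 0.50, adjusted p = 2.10e-06). Both had most of their increase late: the mean signal of STMN2 was 82.2 at day 6 and 216 at day 10, and that of DLX2 was 22.04 and 45.5. Each was called higher at day 17 than at day 10, where 1.45% of all genes were (adjusted p = 3.75e-05 and 3.03e-04).

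**Figure D2:**
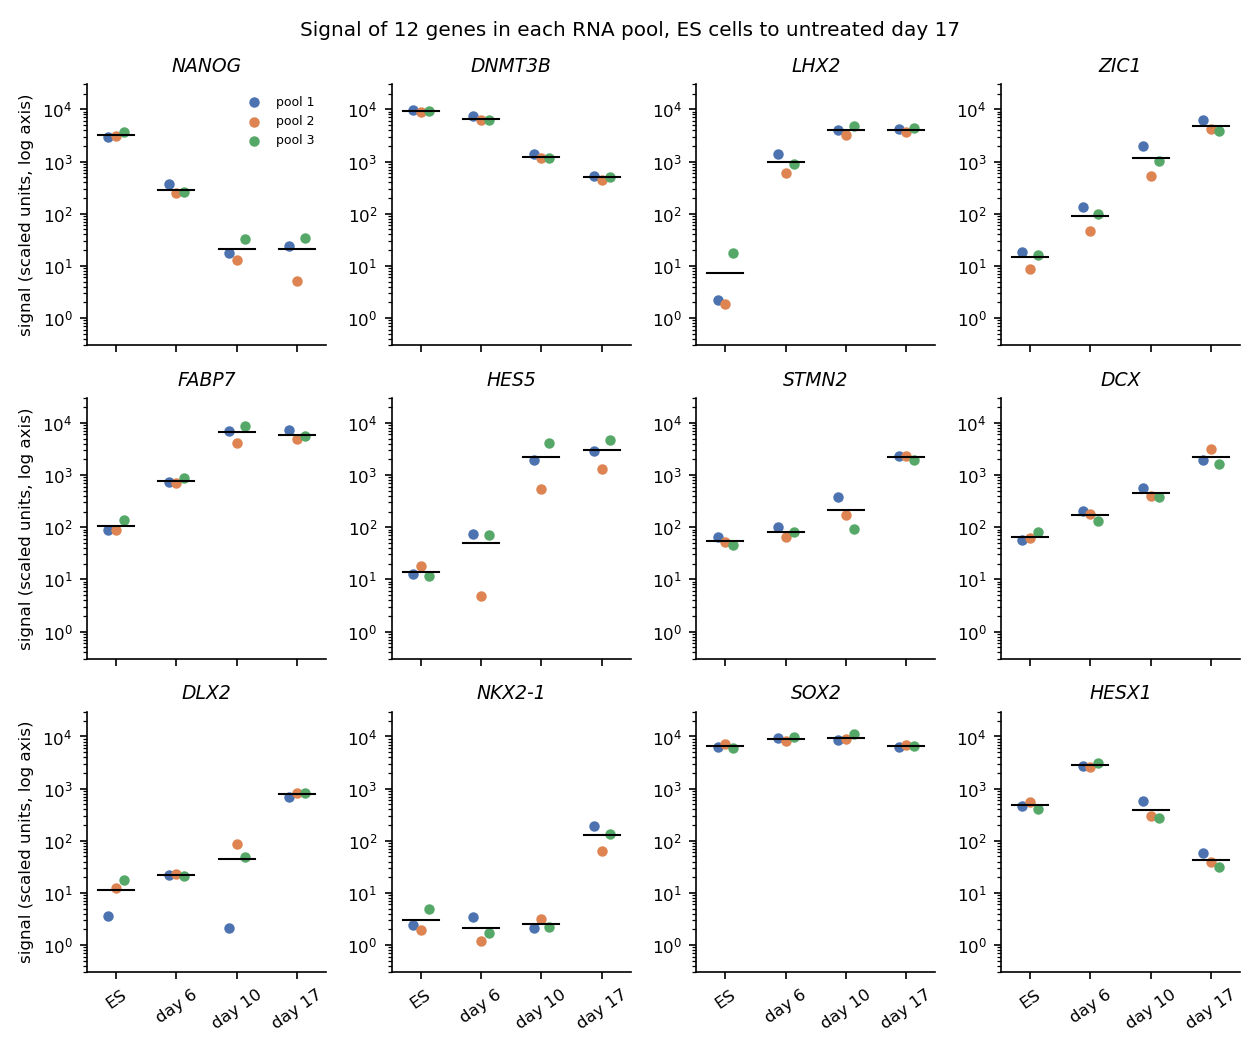
Signal of 12 genes (log axis, scaled units) in each of 3 RNA pools (coloured points) in ES cells, day 6 embryoid bodies, and untreated day 10 and day 17 cells, with the mean of the pools as a black line. NANOG and DNMT3B fall, LHX2 to NKX2-1 climb at different stages, SOX2 is level and HESX1 peaks at day 6.

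Nearly all measured pluripotency genes fell. Of 22 measured members of the list, 20 were called lower at day 17 and 0 higher, with a median log2 difference of -2.83 against 0.09 over all genes. The falls were spread over the course: 8 members were already called lower than in ES cells at day 6, where 1.66% of all genes were, and 6 were called lower at day 17 than at day 10, where 0.536% were. L1TD1, an RNA-binding protein that partners LIN28A, measured 7701, 8204 and 4174 in ES pools 1 to 3 and 159, 152 and 244 at day 17. The lowest ES pool was pool 3 and still lay far above every day 17 pool; the log2 difference was -5.03 (SE 0.49, adjusted p = 1.33e-06). ZFP42 (REX1), a marker of undifferentiated cells, measured 499.8, 651 and 594 in ES pools 1 to 3 and 8.29, 8.12 and 3.75 at day 17, a log2 difference of -4.72 (SE 0.25, adjusted p = 2.19e-09).

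Other factors of the network fell too. PRDM14, a repressor of differentiation genes, fell from a mean signal of 481 ± 179 (SD, n = 3) to 10.1 ± 11.1, ZSCAN10 from 591 ± 241 to 16.999 ± 9.21, and KLF4 from 337 ± 41.98 to 30.3 ± 16.9. KLF4 stood at 345 at day 6 and 36.4 at day 10. Smaller decreases were measured for LIN28A, the RNA-binding protein that blocks let-7 maturation (9124 to 3317, log2 -1.504), and for SALL4 (-1.08). The members not called were LIN28B, the paralogue of LIN28A, at log2 -0.40 with a 95% interval of -0.79 to -0.01, and TERT, the telomerase catalytic subunit, at -0.55 (-1.24 to 0.14). POU5F1 is not analysed here, since none of its probe sets names it alone; probe sets named for its near-identical copies POU5F1P3, POU5F1P4 and POU5F1B fell by 5.64, 6.21 and 5.41, and which copy they read is uncertain.

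The largest decrease of any gene was that of APELA (ELABELA), a secreted peptide hormone made by human ES cells. It measured 5281, 6543 and 6479 in ES pools 1 to 3 and 35.6, 44.8 and 31.3 at day 17, a log2 difference of -6.85 (SE 0.21, adjusted p = 1.24e-11). Other genes among the 15 largest decreases were IDO1, a tryptophan-degrading enzyme (log2 -5.49), GALNT3, which starts O-glycosylation of proteins (-4.75), the long non-coding RNA VHRT (-4.82), CFAP95 (-4.71), and SCNN1A, an epithelial sodium channel subunit (-4.62). Of the 3 probe sets of SCNN1A only the one used here fell, the others reaching 0.43.

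The transcript of the miR-302 cluster on chromosome 4 was among them. This cluster encodes the microRNAs that are most characteristic of human ES cells, and they are shown here because 4 of them share 1 seed, the bases that pair with target mRNAs. RefSeq (GRCh38.p14, minus strand) gives the mature sequences below, with the seed, bases 2 to 8, in capitals; the neighbouring miR-367-3p has another seed.
miR-302a-3p (chr4:112648186-112648208): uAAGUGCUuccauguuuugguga
miR-302b-3p (chr4:112648489-112648511): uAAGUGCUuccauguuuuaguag
miR-302c-3p (chr4:112648366-112648388): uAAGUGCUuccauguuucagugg
miR-302d-3p (chr4:112648006-112648028): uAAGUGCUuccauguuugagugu
miR-367-3p (chr4:112647877-112647898): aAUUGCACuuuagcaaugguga
The probe set annotated to MIR302B measured 11921, 11887 and 14279 in ES pools 1 to 3 and 529, 377 and 495 at day 17. It fell by 4.73 (SE 0.22, adjusted p = 4.51e-10), and its mean was 13797 at day 6 and 1751 at day 10. The groups did not overlap, and the mean ES signal was 27.2 times the day 17 mean. The array read RNA of the locus and did not measure the mature microRNAs.

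Components of Nodal and activin signalling, which sustains human ES cells, moved both ways. Of 13 measured genes, 5 were lower and 2 higher, with a median of -0.38. LEFTY1, a secreted inhibitor that is itself a Nodal target, measured 1499.5, 809 and 1669 in ES pools 1 to 3 and 15.8, 50.01 and 28.6 at day 17, and fell by 4.82 (SE 0.40, adjusted p = 2.00e-07). FOXH1, the DNA-binding partner of SMAD2, fell from 734 ± 236 to 34.8 ± 33.8. GDF3, a ligand of the family, fell from 168 to 42.3, and NODAL itself from 112 to 20.8. The receptor ACVR2A (log2 0.91) and the effector SMAD3 (1.66) rose. Without day 17 pool 1 the lower count was 3, and NODAL was one of the genes lost (log2 -1.54, adjusted p = 0.0594); 1 of the 3 NODAL probe sets pointed upward. The list median was -0.20 without ES pool 2 and -0.64 without day 17 pool 3.

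Enzymes of DNA methylation changed in opposite directions. DNMT3B, the de novo methyltransferase typical of ES cells, measured 9571, 8872 and 9178 in ES pools 1 to 3 and 535, 447 and 501 at day 17, a log2 difference of -4.18 (SE 0.19, adjusted p = 3.83e-10). TET1, which oxidises methylcytosine, fell (log2 -1.28, though its second probe set gave 1.05), while its relative TET2 rose from 79.1 to 266 (log2 1.58). UHRF1, which guides maintenance methylation, rose (log2 1.29). DNMT1, the maintenance enzyme, gave 0.02 with an interval of -0.59 to 0.63. Of 8 measured enzymes 3 were lower and 2 higher (3 higher in the blocked fit). The third lower one, DNMT3A (log2 -0.73), was not called once ES pool 1 was left out (adjusted p = 0.0738). Nor was it called in the fit of the 6 compared arrays alone (adjusted p = 0.0762). The list median of -0.05 was 0.08 without ES pool 1, -0.0054 without ES pool 2, -0.22 without ES pool 3, -0.08 without day 17 pool 2, 0.0086 without day 17 pool 3 and -0.09 after quantile scaling.

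Cell adhesion genes showed an exchange. Of 24 genes of the cadherin and epithelial list, 13 were lower and 6 higher, with a median of -1.41. CDH1 (E-cadherin) measured 4157, 4837 and 3050.3 in ES pools 1 to 3 and 259.98, 266 and 129 at day 17, a log2 difference of -4.14 (SE 0.31, adjusted p = 8.41e-08), and CDH2 (N-cadherin) measured 688, 658 and 565 in ES pools 1 to 3 and 5521, 5346 and 5691 at day 17, a rise of 3.09 (SE 0.16, adjusted p = 1.67e-09). Neither gene's groups overlapped. At day 6 the mean of CDH1 was 3867 and that of CDH2 1577; at day 10 they were 347 and 4636.

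The splicing regulator of epithelia ESRP1 fell from 1886 ± 292 to 63.7 ± 17.8 and the tight junction protein CLDN7 from 516 ± 209 to 9.79 ± 11.1. EPCAM, an adhesion molecule of ES cells and epithelia, fell from 5359.7 ± 647 to 317 ± 24.3. ZEB1, a repressor of CDH1 and ESRP1, measured 13.5, 34.6 and 7.15 in ES pools 1 to 3 and 1562, 1894 and 1543 at day 17 and rose by 5.68 (SE 0.32, adjusted p = 2.47e-09), and its relative ZEB2 rose by 2.95. The junction scaffold TJP1, which both epithelia use, gave -0.09 with an interval of -0.59 to 0.41. CDH1 was lower still in the bFGF-treated day 17 pools, at 59.99 (adjusted p = 0.0399 against untreated).

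Genes of neural progenitors and radial glia rose in 19 of 25 cases and fell in 0, with a median of 3.09. The higher count was 20 in the blocked fit and 18 in the fit of the 6 compared arrays alone. SOX1, an early and specific factor of neural epithelium, measured 3.19, 21.96 and 10.2 in ES pools 1 to 3 and 1777, 1144 and 1733 at day 17, a rise of 5.85 (SE 0.31, adjusted p = 1.81e-09). Its 3 probe sets ranged from 0.09 to 5.85. PAX6, a master factor of neural and eye development, rose from 46.6 ± 17.5 to 2213 ± 647, and DACH1 from 29.5 ± 9.78 to 1576 ± 387; both had reached 2109.8 and 1256 by day 10. POU3F3 (BRN1), a POU factor of cortical progenitors, measured 33.5, 15.6 and 19.2 in ES pools 1 to 3 and 1954, 1625 and 1355 at day 17. Its mean at day 10 was 96.7, so most of its rise of 5.43 (SE 0.35, adjusted p = 1.27e-08) came after that day (day 17 against day 10, adjusted p = 1.34e-05). PANTR1, a long non-coding RNA transcribed beside POU3F3, rose by 5.77 (SE 0.30, adjusted p = 1.33e-09).

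The intermediate filament genes NES and VIM rose by 1.60 and 1.40. Some progenitor genes were already high in ES cells and were not called. SOX2, which serves both pluripotent and neural cells, measured 6163, 7306 and 5891 in ES pools 1 to 3 and 6151, 6969 and 6654 at day 17; the pools interleaved, and the log2 difference of 0.03 had an interval of -0.33 to 0.40. PROM1 (CD133) gave -0.06 with an interval of -0.50 to 0.38. OTX2, shared by ES cells and the anterior brain, gave -0.03 (-0.59 to 0.53).

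Forebrain genes had the highest median of the 33 lists. Of 17 measured forebrain and eye field genes, 10 rose and 1 fell, with a median of 4.18. LHX2, a LIM-homeobox factor of cortex and eye, measured 2.18, 1.85 and 17.7 in ES pools 1 to 3 and 4163, 3644 and 4413 at day 17. It had the largest increase of all genes, 7.52 (SE 0.29, adjusted p = 7.22e-11), and its mean was already 979 at day 6. ZIC1 measured 18.5, 8.84 and 16.05 in ES pools 1 to 3 and 6247, 4119 and 3893 at day 17, a rise of 7.27 (SE 0.49, adjusted p = 2.27e-08), and it was higher at day 17 than at day 10 (mean 1189, adjusted p = 0.0305).

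EMX2, a factor of the dorsal forebrain, measured 0.586, 8.698 and 31.2 in ES pools 1 to 3 and 1393, 940.1 and 1536 at day 17, and NR2E1 (TLX), which maintains neural stem cells, measured 4.83, 3.52 and 5.17 in ES pools 1 to 3 and 630.2, 565 and 651 at day 17. Both were late, with day 10 means of 149.8 and 19.5. NR2F1 (COUP-TFI) rose by 5.46, SIX3 by 4.19 and SIX6 by 4.26; SIX3 had been higher before, at 2136 on day 6 and 2659.99 on day 10, than its 1144 at day 17. FEZF2 rose by 4.18 on the probe set used, with 1 of its 3 probe sets at -0.15.

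HESX1, an anterior repressor of early forebrain and pituitary, was the exception. It measured 467, 565 and 409 in ES pools 1 to 3 and 58.7, 38.9 and 31.6 at day 17 with a mean of 2777 at day 6, so it peaked and then ended below the ES level, a log2 difference of -3.08 (SE 0.32, adjusted p = 3.00e-06). The blocked fit called 2 members lower. NR2E1 was lower with bFGF, at 147 against 616 at day 17 (adjusted p = 0.00656).

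Ventral forebrain and GABAergic genes rose in 10 of 18 cases, none fell, and the median was 1.65. DLX1, the neighbour and partner of DLX2, measured 2.23, 25.2 and 39.1 in ES pools 1 to 3 and 685, 1001 and 471 at day 17, a rise of 4.34 (SE 0.46, adjusted p = 3.54e-06). NKX2-1, which specifies the medial ganglionic eminence and hypothalamus, measured 2.39, 1.92 and 4.92 in ES pools 1 to 3 and 194, 64.3 and 133 at day 17; its mean at day 10 was 2.49 and the rise to day 17 was 2.84 (SE 0.28, adjusted p = 1.29e-06). LHX8, ISL1, OLIG2, DLX5 and DLX6 rose by 1.90, 2.67, 1.65, 2.83 and 1.69. GAD2, an enzyme of GABA synthesis, rose by 1.65 from 14.8 to 87.6, but was not called once day 17 pool 2 was left out (adjusted p = 0.0787), and 2 of its 5 probe sets pointed the other way.

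GAD1, the other GABA-synthesising enzyme, gave 0.23 (-0.70 to 1.15) and SHH, the ventralising signal, -0.27 (-1.19 to 0.64). PTCH1, the receptor and target of SHH, stood at 746 in ES cells and 911 at day 17 after 1760.05 at day 6. These 3 were not called.

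Few genes of more posterior regions were called. Of 15 midbrain and hindbrain genes, 1 rose (PAX2, 6.79 to 82.2) and 1 fell (IRX2, 580.03 to 146); the higher count was 2 without ES pool 2 or without day 17 pool 1, where IRX3 joined it, and 2 or 3 in the blocked fits, fixed or random. The midbrain factors EN1 and EN2 had mean signals of 14.4 and 17.1 at day 17. EN2 and PAX5 were higher with bFGF, at 92.8 and 114 (adjusted p = 0.00436 and 0.0367 against untreated).

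Of 20 HOX and CDX genes, which mark the hindbrain and spinal cord, 1 was called higher, HOXA2, at a mean signal of 23.1 (log2 1.07). That call ended without ES pool 1 (adjusted p = 0.0611), without ES pool 3 (0.0593) or without day 17 pool 3 (0.112), and the count with the block was 2. The summed signal of the 20 genes was 318 to 470.4 in the ES pools and 369.5 to 822 at day 17, the largest HOX difference being that of HOXB2 at 1.29, which was not called. Without day 17 pool 2, the array of raised low signals, 1 of the 20 genes was called higher.

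**Figure D3:**
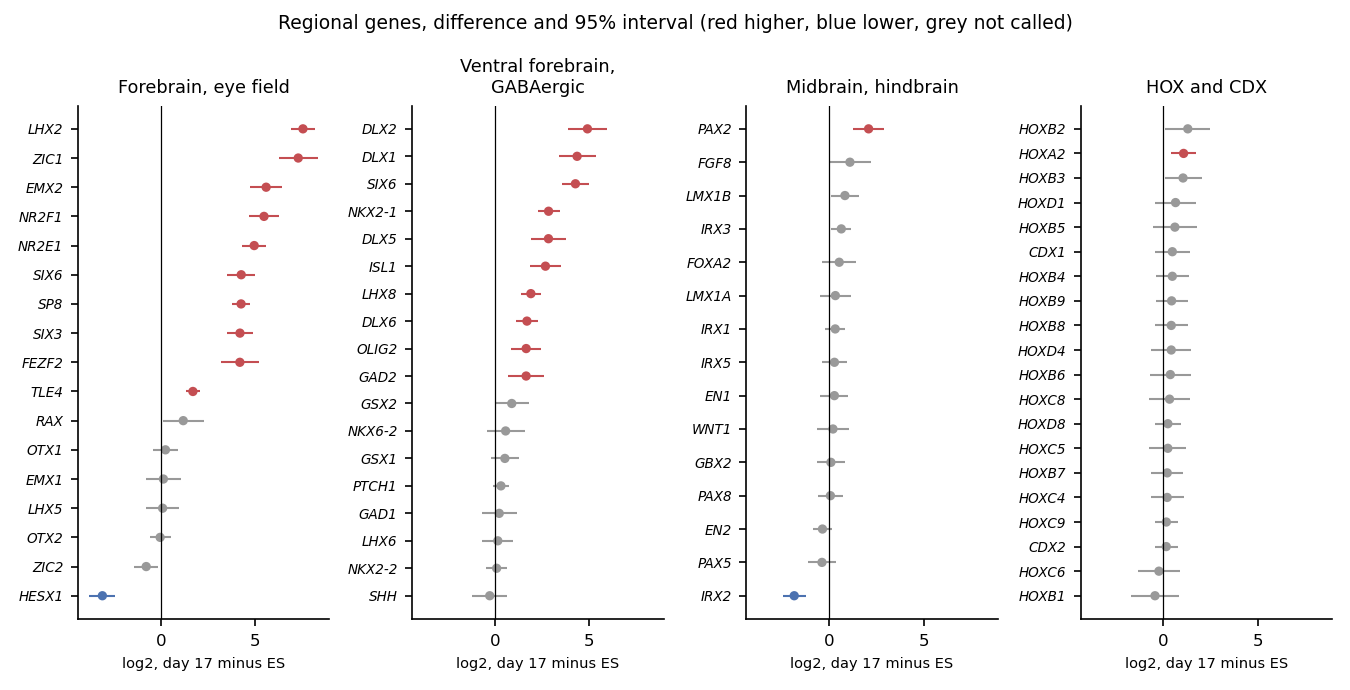
Log2 difference (day 17 minus ES, x axis) and its 95% interval for each measured gene of 4 regional lists; red genes were called higher, blue lower and grey were not called. Forebrain and ventral forebrain genes reach 7.52 and 4.89 at the top, while midbrain, hindbrain, HOX and CDX genes lie lower, between -1.85 and 2.09.

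Proneural and neuronal commitment genes rose in 13 of 19 cases and fell in 0, with a median of 1.63. INSM1, a zinc-finger factor of newborn neurons, measured 29.3, 25.3 and 9.02 in ES pools 1 to 3 and 460.2, 286 and 424 at day 17, a rise of 3.47 (SE 0.33, adjusted p = 1.17e-06); its day 10 mean was 51.04. NHLH1 and ST18 rose by 2.86 and 2.76, to 142 and 151. The ST18 probe sets other than the one used gave -0.39, 0.006 and 0.27. Factors of cortical intermediate progenitors and early cortical neurons were also higher: EOMES (TBR2) at 189 against 30.95, and TBR1 at 57.9 against 10.7. SOX11 rose by 2.95. NEUROG2, ATOH1 and NEUROD4 were not called, at log2 0.07, -0.23 and -0.20. Of the 19, 8 were called higher at day 17 than at day 10.

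Among 33 neuronal genes, 20 rose and 2 fell (4 in the blocked fits), with a median of 1.19. The fit of the 6 compared arrays alone called 18 higher. Of the 33, 14 were called higher at day 17 than at day 10. Only 2 were called higher at day 6 than in ES cells, where 2.19% of all genes were. MAP2, a dendritic microtubule protein, measured 31.6, 66.6 and 27.7 in ES pools 1 to 3 and 2492, 2348 and 1757 at day 17, a rise of 5.30 (SE 0.30, adjusted p = 2.91e-09) that was mostly reached by day 10 (1985). DCX (doublecortin), found in migrating neurons, measured 56.7, 61.05 and 79.4 in ES pools 1 to 3 and 1961, 3132 and 1645 at day 17, a rise of 4.75 (SE 0.26, adjusted p = 2.47e-09). ELAVL4 and ELAVL3, neuronal RNA-binding proteins, rose by 3.99 and 2.87, and MAPT (tau) by 2.41.

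Several genes commonly used as neuronal markers were not called against ES cells. TUBB3 measured 5201, 3107 and 5001 in ES pools 1 to 3 and 7346, 4006 and 8442 at day 17, a log2 difference of 0.54 (-0.31 to 1.39). GAP43, a growth cone protein, stood at 459 in ES cells, 126 at day 10 and 659 at day 17; it was called higher at day 17 than at day 10 (adjusted p = 2.07e-04) and not against ES cells. UCHL1 gave -0.63 (-1.21 to -0.05). SCG3, a secretory granule protein, and CNTN1, a neuronal adhesion molecule, were the members called lower: SCG3 measured 426, 450.4 and 246 in ES pools 1 to 3 and 97.2, 132 and 42.9 at day 17, and CNTN1 measured 229, 291 and 207 in ES pools 1 to 3 and 39.6, 71.4 and 69.9 at day 17. CNTN1 stood at 17.4 at day 10 and was called higher at day 17 than there (adjusted p = 0.00939).

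Ion channel and receptor genes were mixed, with 5 of 19 higher, 3 lower and a median of 0.37. SCN3A, the embryonic neuronal sodium channel, measured 8.28, 0.505 and 1.29 in ES pools 1 to 3 and 108, 111 and 64.5 at day 17, a rise of 2.50 (SE 0.31, adjusted p = 1.60e-05). GRIA1 and GRIA2, subunits of AMPA glutamate receptors, reached 136 and 21.1. KCND2, a potassium channel, fell from 186 to 31.4. Without ES pool 2 or without day 17 pool 3 the lower count was 1. The median was 0.70 without day 17 pool 1, 0.20 without day 17 pool 2 and 0.16 after quantile scaling.

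Axon guidance genes rose in 18 of 27 cases and 1 fell, with a median of 1.60. DCC, the netrin receptor, measured 12.3, 13.1 and 8.84 in ES pools 1 to 3 and 557, 924 and 441 at day 17, a rise of 4.52 (SE 0.28, adjusted p = 8.20e-09), and its ligand gene NTN1 rose by 2.09. SLIT2 and its receptor gene ROBO2 rose by 4.23 and 2.74; ROBO1 stood at 2084 at day 6 and at 1005 at day 17 against 963 in ES cells. EPHA3 rose by 4.11 and EFNB2 by 2.64. SEMA6A was the gene that fell (1306 to 361). DCC and EPHA3 each had 1 of 3 probe sets near 0.

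Glial genes were 6 higher and 1 lower of 15, with a median of 0.31. SOX9, a factor of neural stem cells and astrocyte specification, measured 56.5, 72.9 and 59.4 in ES pools 1 to 3 and 1239.9, 850.2 and 1027 at day 17 and rose by 3.73 (SE 0.33, adjusted p = 4.95e-07), and SLC1A2, a glial glutamate transporter, reached 258. OLIG1 and OLIG2 rose to 83.4 and 73.1. The markers of mature astrocytes GFAP, AQP4 and S100B had day 17 means of 5.101, 18.6 and 8.74 and were not called. MBP, the lower gene, lost its call without ES pool 3 or any single day 17 pool, which left 0 lower genes; the block gave 2. The median was 0.0047 without day 17 pool 3 and 0.13 after quantile scaling.

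Notch signalling genes were higher in 15 of 20 cases and lower in 1, with a median of 1.52. The ligand gene DLL1 measured 62.001, 69.5 and 53.6 in ES pools 1 to 3 and 1673, 860.2 and 1677 at day 17, a rise of 4.13 (SE 0.37, adjusted p = 4.90e-07); JAG1 rose by 1.51 and DNER by 3.04. The receptors NOTCH1 and NOTCH2 rose by 1.87 and 1.09, and NOTCH3 gave 0.95 (-0.12 to 2.02), not called. LFNG and MFNG, which glycosylate Notch, rose by 1.53 and 1.27. NRARP, a feedback inhibitor, rose by 1.10.

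The effector genes HES5, HES4 and HES1 all rose, and the DNA just before their starts is shown because all 3 carry the letters TGTGGGAA, a form of the element bound by RBPJ, the DNA-binding partner of Notch. The stretches are from RefSeq (GRCh38.p14), read 5′ to 3′ on the strand of the gene, with the matches on either strand in capitals.
HES5 (chr1:2530298-2530513, minus strand): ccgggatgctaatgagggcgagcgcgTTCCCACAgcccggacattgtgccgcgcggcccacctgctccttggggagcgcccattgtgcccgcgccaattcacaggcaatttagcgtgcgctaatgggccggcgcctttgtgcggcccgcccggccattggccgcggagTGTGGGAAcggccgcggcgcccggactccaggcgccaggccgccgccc
HES4 (chr1:1000128-1000215, minus strand): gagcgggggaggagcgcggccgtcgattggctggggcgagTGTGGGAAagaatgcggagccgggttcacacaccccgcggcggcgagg
HES1 (chr3:194136022-194136109, plus strand): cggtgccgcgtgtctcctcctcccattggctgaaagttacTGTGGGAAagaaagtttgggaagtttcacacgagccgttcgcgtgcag
HES5 holds 2 matches, of which the nearer ends 75 bases before the start, and HES4 and HES1 hold 1 each, ending 71 and 79 bases before it. The letters occur, on either strand, in 1.43% of the 35116 RefSeq windows of 250 bases before a start, in 1.28% of those of the genes tested, in 3 of the 16 windows found for the Notch list, in 32 of 2977 windows of genes called higher and in 29 of 1932 of those called lower. A match is a description of the sequence and not evidence of binding.

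HES5 measured 12.5, 17.7 and 11.5 in ES pools 1 to 3 and 2943, 1331 and 4622 at day 17, a rise of 6.47 (SE 0.75, adjusted p = 8.52e-06), and day 17 pool 2 was the lowest of its 3. HES4 measured 8.13, 6.58 and 4.07 in ES pools 1 to 3 and 639.995, 235 and 665 at day 17, a rise of 4.44 (SE 0.49, adjusted p = 4.84e-06). HES1 measured 216, 279 and 366 in ES pools 1 to 3 and 1526, 606 and 1707 at day 17; it was high at day 10 (2169) and its net rise was 1.99 (SE 0.43, adjusted p = 0.003). HEY1 rose by 3.19 to 958, whereas HEY2, a related effector, fell from 353 ± 76.4 to 23.3 ± 24.02 (-3.39).

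For comparison, the same search was made for the octamer core TTTGCAT, the element read by POU-family factors, because NANOG had the largest fall of the pluripotency list. The stretch before the NANOG start (RefSeq, GRCh38.p14, chr12:7789242-7789328, plus strand) holds it once, in capitals.
NANOG: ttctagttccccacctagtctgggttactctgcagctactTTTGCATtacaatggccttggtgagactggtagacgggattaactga
The core was present in 3.94% of all 35116 windows, in 3.37% of those of the genes tested, in 1 of 16 windows of the pluripotency list, in 3.00% of windows of genes called lower and in 4.03% of those called higher.

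FGF signalling genes ended on both sides of the ES level: of 24, 4 were higher and 5 lower, with a median of -0.01. The ligand genes FGF2 and FGF4 fell, from 832 to 253 and from 232 to 24.9, and FGF9 rose from 16.4 to 241. The receptor genes FGFR2 and FGFR4 fell by 1.37 and 1.46, while FGFR1 gave 0.00 (-0.72 to 0.72). Of the feedback genes, DUSP4 and ETV5 rose by 3.03 and 1.36 and SPRY4 fell by 1.47. Without day 17 pool 1 or pool 3 the higher count was 2. The median was 0.15 without ES pool 1, -0.02 without ES pool 2, -0.03 without ES pool 3, -0.08 without day 17 pool 1, 0.11 without day 17 pool 2, -0.07 without day 17 pool 3 and -0.12 after quantile scaling.

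DUSP6, a phosphatase induced by ERK, had a mean of 304 in ES cells, 2038 at day 10, 460.2 at day 17 and 3374 at day 17 with bFGF. It was not called against ES cells and was called lower than at day 10 (adjusted p = 0.00585) and lower than with bFGF (adjusted p = 0.00231).

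BMP pathway genes were 10 higher and 2 lower of 21, with a median of 1.07. ID1, a direct BMP target that inhibits bHLH factors, measured 5126, 5806 and 7871 in ES pools 1 to 3 and 1501, 821 and 1504 at day 17 and fell by 2.31 (SE 0.28, adjusted p = 1.58e-05). Its relatives ID2 and ID4 rose by 1.41 and 2.67, and ID3 gave 0.49 (-0.38 to 1.36). The receptor BMPR1B and the effector SMAD9 rose by 3.29 and 3.38, and the antagonists NOG and GREM1 by 2.61 and 1.97. The other lower gene, SMAD7, dropped out without ES pool 1 or any single day 17 pool.

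WNT pathway genes were 17 higher and 2 lower of 27, with a median of 1.45. The ligand WNT5B rose from 6.08 to 307 and the secreted inhibitors FRZB and SFRP2 rose by 3.64 and 2.72. RSPO3, which amplifies WNT signals, rose by 3.34, and the receptors FZD1, FZD2 and FZD3 by 2.79, 2.06 and 2.19. FZD7, a receptor prominent in ES cells, fell by 1.49. AXIN2, a general WNT target, gave -0.08 (-0.54 to 0.38), and LEF1 rose by 2.40.

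Retinoid genes moved both ways. CYP26A1, which degrades retinoic acid, measured 2265, 2707 and 3417 in ES pools 1 to 3 and 82.3, 86.01 and 107 at day 17 and fell by 4.69 (SE 0.21, adjusted p = 3.10e-10), and DHRS3, which limits its synthesis, fell by 2.72. The synthesising enzyme ALDH1A1 measured 19.6, 2.73 and 19.7 in ES pools 1 to 3 and 402, 833 and 368 at day 17 and rose by 4.16 (SE 0.56, adjusted p = 3.86e-05); ALDH1A3 rose by 1.39. The day 17 pools of ALDH1A1 ranged widely. Both enzymes were lower with bFGF, at 49.8 and 74.8 (adjusted p = 0.0282 and 0.011). Of 13 genes measured, 4 were higher and 2 lower (median 0.59).

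Markers of other cell types were present beside the neural ones. Of 14 endoderm, liver and yolk sac genes, 9 were higher and 0 lower, with a median of 1.53; their summed signal was 368 to 446 in the ES pools and 2425 to 3975 at day 17. AFP (alpha-fetoprotein) measured 81.8, 74.2 and 85.8 in ES pools 1 to 3 and 659, 834 and 997 at day 17, a rise of 3.11 (SE 0.38, adjusted p = 1.31e-05), and the apolipoprotein genes APOA2 and APOB rose by 3.27 and 2.71. Their day 10 means were 95.97, 100.1 and 36.7. The defining factors FOXA2 and FOXA1 and the liver gene ALB had day 17 means of 13.9, 17.8 and 23.8 and were not called; SOX17 was called, at 50.7 against 20.2. With bFGF, AFP was 127 and APOB 31.3 (adjusted p = 0.00574 and 0.0154 against untreated). TTR (transthyretin), made by liver, yolk sac and choroid plexus, rose by 3.41.

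Mesenchymal and muscle genes were 7 higher and 2 lower of 19 (median 0.56), and their sum was 9890.4 to 12548 in the ES pools and 18038 to 27706 at day 17. LUM (lumican), a proteoglycan of connective tissue, measured 0.631, 7.08 and 14.3 in ES pools 1 to 3 and 842, 2113 and 932 at day 17, a rise of 5.73 (SE 0.63, adjusted p = 5.10e-06), and was highest in day 17 pool 2. COL3A1 measured 15.1, 192 and 189 in ES pools 1 to 3 and 2639, 3938 and 2865 at day 17, a rise of 4.83 (SE 0.60, adjusted p = 1.69e-05); DCN and ACTA2 rose by 2.68 and 3.75. COL1A1, already 2866 in ES cells, gave 0.73 (0.15 to 1.30), and THY1 and CAV1 fell by 1.62 and 1.23. The muscle gene DES and the mesenchymal factor PRRX1 had day 17 means of 32.9 and 57.8 and were not called. The list median was 0.91 without day 17 pool 2.

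Neural crest genes were 8 higher and 2 lower of 15 (median 1.41, sum 1718 to 2057 in the ES pools and 2690.1 to 3217 at day 17); 8 of the 15 stand in other lists too. SNAI2 and TFAP2B rose by 2.46 and 2.22, and MSX1 by 2.04. SOX10, a defining crest factor, had a day 17 mean of 45.7 and was not called, and FOXD3, an early crest and ES factor, fell by 1.82. ETS1 fell by 1.64.

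Eye and choroid plexus genes rose in 5 of 15 and 5 of 11 cases, with medians of 0.84 and 0.33 and 0 lower. TYRP1 and MITF, of pigment cells and retinal pigment epithelium, rose by 3.05 and 2.07, and CRYAB, a small heat shock protein abundant in lens, by 2.04; TYRP1 and CRYAB were lower with bFGF (68.1 against 276, and 54.6 against 402). The MITF probe sets ranged from -0.40 to 2.07. The photoreceptor genes CRX and RCVRN and the pigment epithelium gene RPE65 had day 17 means of 9.57, 9.702 and 3.87. Of choroid plexus genes, ENPP2, KCNJ13 and AQP1 rose by 3.42, 3.09 and 2.25, while FOLR1, CLIC6 and KL were not called. The summed signals were 516 to 803 in the ES pools and 2029.7 to 2433 at day 17 for the eye list, and 4326 to 9239 in the ES pools and 5465 to 7714 at day 17 for the choroid plexus list, whose ranges overlap. The choroid plexus median was 0.60 without ES pool 3, 0.51 without day 17 pool 2 and 0.20 without day 17 pool 3.

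Markers of mesendoderm, trophoblast and surface ectoderm moved both ways. The primitive streak genes TBXT, GSC and MIXL1 had day 17 means of 24.8, 1.84 and 3.95. EOMES, HAND1 and ISL1 were the 3 higher genes of 11, against 1 lower (KDR), and 4 of these 11 mesendoderm genes stand in other lists too. The median was 0.13 and the sums were 405 to 512 in the ES pools and 669 to 1037 at day 17. The median was 0.32 without ES pool 2, 0.23 without ES pool 3, 0.35 without day 17 pool 1, -0.07 without day 17 pool 2, 0.58 without day 17 pool 3 and -0.08 after quantile scaling. Of 11 trophoblast genes 3 were higher and 1 lower (median 0.17, sums 619 to 787 in the ES pools and 624 to 747 at day 17), the higher count being 1 without ES pool 1 or day 17 pool 2. The trophoblast median was 0.38 without ES pool 1, 0.39 without day 17 pool 1, 0.31 without day 17 pool 3 and 0.07 after quantile scaling. CGA and GCM1 had day 17 means of 6.33 and 17.2. Of the 11 trophoblast genes, 6 stand in other lists too.

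Of 12 surface ectoderm and keratin genes, 2 were higher and 2 lower (median 0.0013, sums 5418 to 8243 in the ES pools and 4343 to 4984 at day 17). KRT14, a basal keratin, had a day 17 mean of 5.63. The simple-epithelium keratin KRT19 measured 724, 403 and 1034 in ES pools 1 to 3 and 403, 198 and 412 at day 17, which was not called (log2 -1.03) except in the blocked fits (adjusted p = 0.00162 fixed and 0.0151 random), where 5 members were lower. TFAP2C fell by 1.54. The higher count was 1 without ES pool 1, ES pool 3 or day 17 pool 2. The median was -0.08 without ES pool 1, -0.10 without ES pool 2, -0.16 without ES pool 3, -0.02 without day 17 pool 1, -0.28 without day 17 pool 2, 0.10 without day 17 pool 3 and -0.07 after quantile scaling. What part any of these cell types had in the neural results was not tested.

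Extracellular matrix genes rose in 18 of 24 cases and fell in 0 (median 1.73). COL2A1, a collagen of cartilage and of early neural epithelium, measured 44.9, 41.8 and 49.1 in ES pools 1 to 3 and 2983, 1932 and 4688 at day 17, a rise of 5.62 (SE 0.37, adjusted p = 1.56e-08). SPON1, of the floor plate and developing brain, rose by 3.98, and RELN, secreted by the earliest cortical neurons, by 3.43. The basement membrane genes COL4A1, COL4A2, COL4A5 and COL4A6 rose by 1.25, 2.17, 2.03 and 2.72, and FN1 (fibronectin) by 2.08; LAMB1 and LAMC1, laminin subunits, gave 0.05 and 0.16 and were not called.

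Imprinted genes rose in 9 of 14 cases and fell in 0 (median 1.53). DLK1, a transmembrane protein related to Notch ligands, measured 107, 308 and 155 in ES pools 1 to 3 and 12949, 12873 and 24767 at day 17, a rise of 6.40 (SE 0.38, adjusted p = 5.90e-09). Its mean was already 6186 at day 6. NNAT (neuronatin), PLAGL1 and PEG3 rose by 3.61, 3.16 and 2.81. MEG3, the non-coding RNA of the DLK1 locus, gave 0.90 (0.04 to 1.77) and was not called.

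Cell cycle genes were split, with 6 of 30 higher and 5 lower. The inhibitor genes CDKN1C (p57) and CDKN1A (p21) had the largest rises. CDKN1C measured 198, 161 and 284 in ES pools 1 to 3 and 1732, 1192 and 2350.4 at day 17, a rise of 2.93 (SE 0.45, adjusted p = 1.39e-04), and CDKN1A measured 52.2, 117 and 135 in ES pools 1 to 3 and 419, 296 and 1117 at day 17, a rise of 2.27 (SE 0.46, adjusted p = 0.00181). CDKN1B (p27) rose by 0.88 and the G1 cyclins CCND1 and CCND2 by 0.90 and 0.98. MYC fell by 1.40, BUB1 by 0.98, and CCNB1 by 0.68, while the proliferation markers MKI67, TOP2A and PCNA gave 0.65, 0.47 and -0.31 and were not called. The fixed block called 8 genes lower. The list median of -0.21 was 0.05 without ES pool 1, -0.34 without ES pool 2, -0.03 without ES pool 3, 0.20 without day 17 pool 2 and 0.03 after quantile scaling.

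Genes of glycolysis and the response to hypoxia were 2 higher and 4 lower of 18 (9 lower in the blocked fits), with a median of -0.67. ADM (adrenomedullin) measured 1296, 1244 and 1693 in ES pools 1 to 3 and 122, 149 and 160.2 at day 17, a log2 difference of -3.15 (SE 0.22, adjusted p = 3.05e-08), and LDHA (lactate dehydrogenase A) measured 8723, 9037 and 16196 in ES pools 1 to 3 and 1736, 2061 and 2148 at day 17, a log2 difference of -2.45 (SE 0.29, adjusted p = 1.16e-05). Their means at day 6 were 279.95 and 4087. EPAS1 (HIF-2 alpha) rose by 2.29, after a day 6 mean of 1099.8. Its probe sets ranged from -0.15 to 2.29. Without the 4 arrays of raised low signals, 4 genes were higher. The median was -0.37 without ES pool 3, -0.36 without day 17 pool 2 and -0.34 after quantile scaling.

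Of 22 genes of the neural switch in chromatin remodelling subunits and splicing regulators, 5 were higher and 0 lower (9 higher with the block; median 0.51). NOVA1, a neuronal splicing factor, rose by 2.08, SRRM4 by 1.19 and SMARCC2 by 1.64. PHF10 and SMARCD3 rose by 2.14 and 1.97, but each has a second probe set with a negative difference. REST, the repressor of neuronal genes, gave -0.53 (-1.27 to 0.22). The median was 0.29 without ES pool 3, 0.34 without day 17 pool 2 and 0.29 after quantile scaling. As a control, 16 ribosomal protein genes had 0 calls in either direction (1 lower with the fixed block) and a median of -0.18. That median was -0.0072 without ES pool 3, -0.04 without day 17 pool 1, -0.11 without day 17 pool 2, -0.39 without day 17 pool 3 and 0.0092 after quantile scaling. Quantile scaling moved the median of all genes from 0.09 to -0.04.

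**Figure D4:**
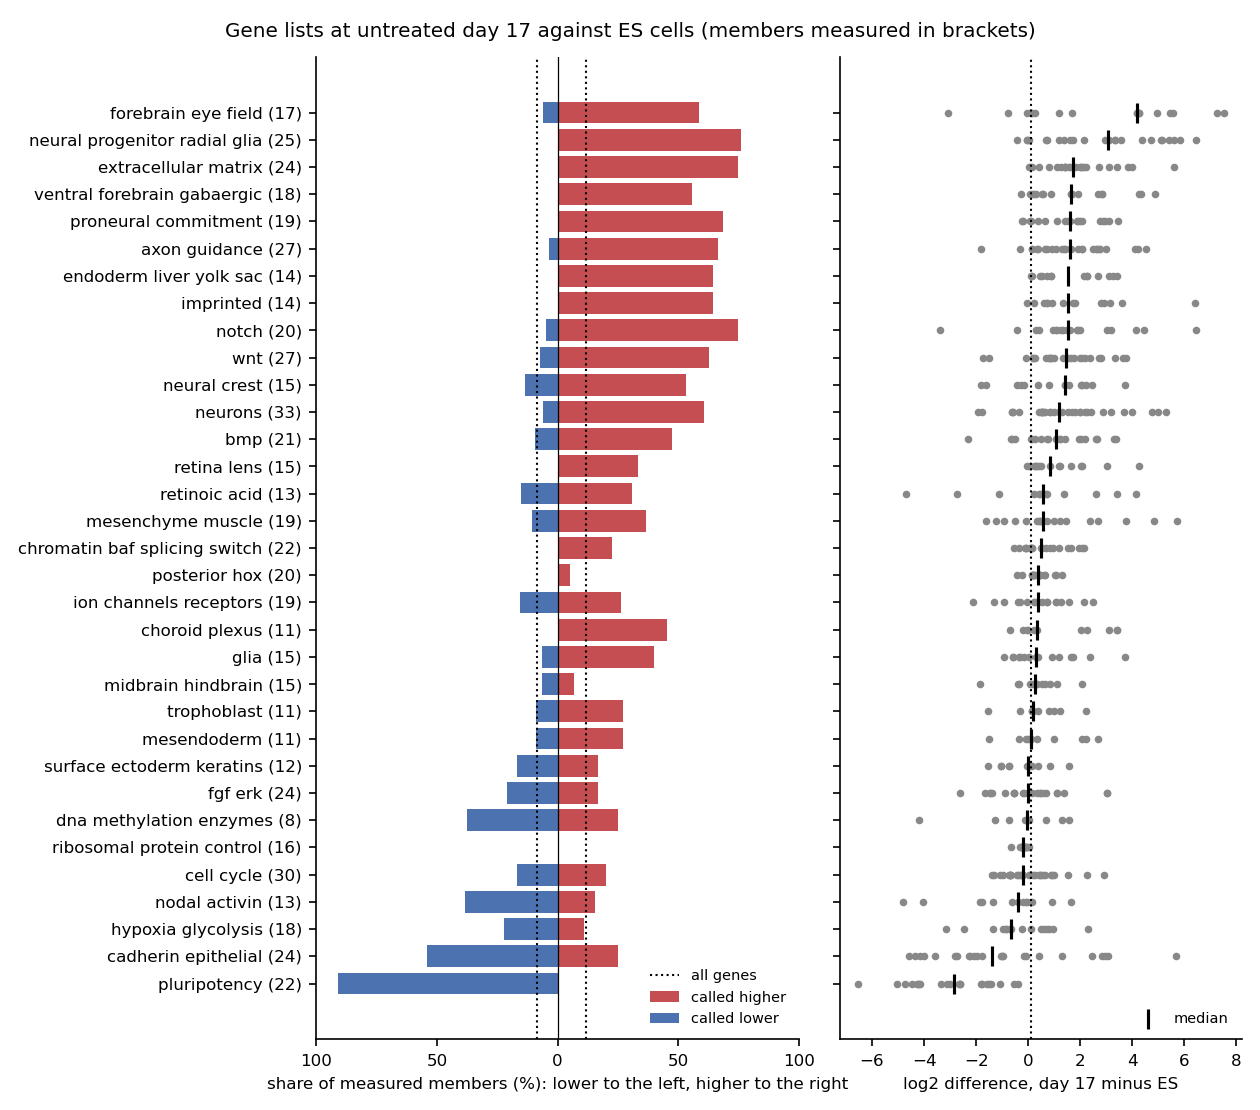
Left, the share of measured members of each of 33 gene lists called higher (red, to the right) or lower (blue, to the left) at day 17, with dotted lines at the shares over all genes (11.7% and 8.47%); right, each member's log2 difference (grey points) and the list's median (black bar), with a dotted line at the median of all genes. Lists are sorted by median, from forebrain at the top (4.18) to pluripotency at the bottom (-2.83).

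Some genes left the ES level and came back. A gene was counted as returned when it differed from ES cells at least 2-fold with a call at day 6 or day 10, was called in the opposite direction between that stage and day 17, and had a day 17 minus ES interval within 2-fold either way, whether or not it was called against ES cells at day 17. Calls of at least 2-fold against ES cells covered 2.98% of all genes at day 6 and 9.61% at day 10, and day 17 was called apart from day 6 for 14.3% and from day 10 for 1.99%. Of 2037 genes that had moved in this sense by day 6 or 10, 189 were called back toward the ES level and 72 met the full rule, which is 3.53% of the 2037 and 0.364% of all genes. Of these, 30 had risen (of 1176 raised genes, 2.55%) and 42 had fallen (of 870 lowered genes, 4.83%). The interval at day 17 lay within 2-fold for 39.4% of all genes. These values chose the genes, so they are given as a description without a test.

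The count moved with the settings: in the blocked fits it was 136 (fixed) or 129 (random), with a pseudocount of 1 it was 37, and leaving out single arrays gave 49 to 72. Without ES pool 1 the raised genes numbered 16. Just inside the limit were SH3GL3 and LPAR1, whose intervals reached -0.999 and 0.994, and just outside were CCDC177 and ZNF750, at 1.003 and 1.014. The ES and day 17 pools overlapped for 60 of the 72 genes and not for 12, where 33.6% of all genes did not overlap. The rule asks for a small difference between these pools, which favours overlap. SPATS2L was the 1 returned gene that was called against ES cells at day 17 (log2 -0.58, adjusted p = 0.0312).

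Among genes that rose and returned, PAMR1, a secreted protease-like protein, had the largest excursion. Its pools measured 107, 83.5 and 158 in ES pools 1 to 3 and 106, 59.6 and 167 at day 17, and 2738, 1019.5 and 2055 at day 6 and 1268, 882 and 2217 at day 10. The day 17 pools spread around the ES pools, and day 10 had stood well above both. IRX1, an Iroquois homeobox factor of the neural plate, had mean signals of 57.9 in ES cells, 415 at day 6, 99.7 at day 10 and 76.4 at day 17. LHX5, a LIM-homeobox factor of the early forebrain, had means of 6.01 in ES cells, 114 at day 6, 23.6 at day 10 and 7.95 at day 17. VWF (von Willebrand factor, of endothelium) had means of 6.91 in ES cells, 132 at day 6, 19.8 at day 10 and 7.56 at day 17.

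Growth factors and their regulators were among the raised genes. NRG1 (neuregulin) had means of 91.1 in ES cells, 261 at day 6, 427 at day 10 and 113 at day 17, FST (follistatin, an activin antagonist) of 419 in ES cells, 1230.3 at day 6, 429 at day 10 and 328 at day 17, and HAS2, which makes hyaluronan, of 71.3 in ES cells, 302 at day 6, 230.4 at day 10 and 83.9 at day 17. The 6 NRG1 probe sets gave day 17 minus ES differences of 0.15 to 1.24, with 0.28 for the one used. PTCH1 also returned, as given above. SPRY1, a feedback inhibitor of FGF signalling, had means of 302 in ES cells, 271 at day 6, 919 at day 10 and 302 at day 17, and its day 17 pools measured 364, 221 and 321. With bFGF its day 17 mean was 1640.3, a difference of 2.40 from the untreated pools (SE 0.26, adjusted p = 0.00123). The rule did not use the treated pools, but it chose SPRY1 by the untreated ones.

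Among genes that fell and returned, CAV2 (caveolin 2) moved most, with pools of 198, 189.8 and 138 in ES pools 1 to 3 and 171, 219 and 259 at day 17 and 12.6, 14.9 and 12.9 at day 6. The day 6 pools lay below every ES and day 17 pool. INHBA, the activin A subunit, had means of 90.97 in ES cells, 19.97 at day 6, 41.3 at day 10 and 93.3 at day 17, and GLIPR1 of 66.8 in ES cells, 9.87 at day 6, 59.2 at day 10 and 68.3 at day 17. The 5 GLIPR1 probe sets gave day 17 minus ES differences from 0.006, for the one used here, up to 1.01. Its return therefore rests on the probe set chosen. LHX6, a factor of cortical interneurons, had means of 72.9 in ES cells, 32.3 at day 6, 20.3 at day 10 and 84.04 at day 17. COL1A2 had means of 825 in ES cells, 360.4 at day 6, 758 at day 10 and 1129.9 at day 17, and the collagen hydroxylase subunit P4HA1 of 818 in ES cells, 352 at day 6, 789 at day 10 and 849 at day 17. B2M, the light chain of MHC class I, had means of 3151 in ES cells, 1449.8 at day 6, 2332 at day 10 and 2705 at day 17.

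In the bFGF-treated day 17 pools, which the rule did not use, 67 of the 72 genes also had a mean within 2-fold of the ES mean, as did 17016 of all 19775 genes (86%). SPRY1, TOX and N4BP2L1 were called between treated and untreated day 17 cells, 3 of 72, where 0.339% of all genes were. TOX, a nuclear factor of neural and lymphoid development, was 337 with bFGF and 891 without, and N4BP2L1 was 37.1 and 97.6. These comparisons share the untreated day 17 pools, and the count within 2-fold the ES pools, with the rule.

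**Figure D5:**
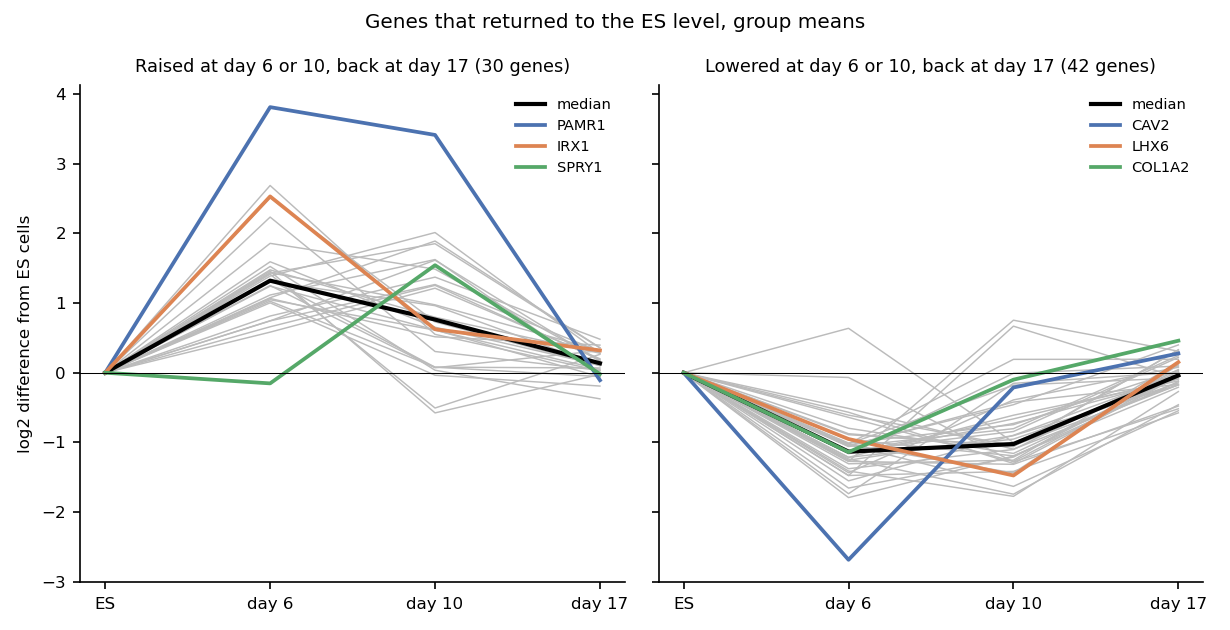
Log2 difference of group means from ES cells (y axis) at each stage for 30 genes raised at day 6 or 10 (left) and 42 lowered (right) that returned by day 17; grey lines are genes, the black line is their median and 3 genes are coloured in each panel. All lines end within 1 log2 unit of 0, as the rule requires, and PAMR1 and CAV2 have the widest excursions.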

How the data were processed

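Total RNA pools of H9 cells and their derivatives were hybridised to 1-colour Affymetrix arrays. The authors deposited a linear intensity for every probe set; that the 18 arrays were scaled to a 2% trimmed mean of about 150.02 is taken from the values, and how the signals were summarised is not given in the sources used here. Low signals carry no detection call, and precision is limited by the number of arrays. Of 54675 probe sets, 41097 named 1 gene; an _x_at set was used only where a gene had no other, and the set with the highest mean of log2(signal + 16) over the 18 arrays was kept, giving 19775 genes. limma 3.58.1 in R 4.3.3 was fitted with 1 mean per group (lmFit and eBayes, with 12 residual degrees of freedom), and p-values had Benjamini-Hochberg adjustment over all genes and a threshold of 0.05. The scripts were tested on simulated data. Pools with the same number deviated together in ES and day 17 cells (correlations 0.166, 0.248 and 0.156). Pools of unlike number gave correlations of -0.249 to 0.086. Each group's mean was taken out first, so raised correlations of like numbers lower those of unlike numbers by construction. The number of ES pool 1 is taken by elimination. Day 6 pool 2 is listed with passages 27, 28 and 31, which are those of ES pool 1, so a shared number need not mean shared cells. Fits with the pool number as a block are given for some of the counts that they changed. The genes and the 33 lists were chosen with earlier results of these data known. Named genes were the 4 markers, the 15 largest increases and decreases that were called and did not overlap, the 5 or 10 members of each list with the largest change, and 8 returned genes in each direction; other list members, SPRY1, FST, PTCH1, LHX6, COL1A2, P4HA1, B2M, TOX, N4BP2L1, SPATS2L and the genes at the limit of the return rule were named after their values were seen. Alternatives covered the pseudocount, scaling, filter, prior, arrays and probe sets.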

Additional observations from a re-analysis of the deposited data

How the results depend on the processing

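The call counts moved by more than 1.5 times only when a 2-fold change was required and, for the lower genes, with the fixed block. Requiring a 2-fold change left 2656 calls, 982 of them lower. The fixed block on the pool number raised the lower count to 2584. Within that limit, leaving out 1 array at a time gave 3130 to 3703 calls (1788 to 2138 higher and 1339 to 1565 lower). The 6 compared arrays alone gave 3020 calls (1841 higher and 1179 lower), also within it. The count of returned genes was less stable: 110 with the 4 arrays of raised low signals as a term (48 raised), 13 with the interval held within 1.5-fold (2 raised and 11 lowered), 122 where only the absence of a call was asked (55 and 67), 37 with a pseudocount of 1 (8 raised), 136 with the fixed block (64 and 72) and 129 with the random block (61 and 68). Leaving out 1 array gave 49 to 72 returned genes, 16 to 33 of them raised and 28 to 42 lowered. The pool number as a term (the pairing of ES and day 17 pools) left every log2 difference unchanged. Each group holds the same pool numbers, so this setting could not turn a sign and says nothing about direction. Of 176 called named genes, 160 kept their call and direction in every alternative run on them and 15 lost the call in at least 1. Many of them were chosen by the size of this same difference. The share that kept the call therefore says little about the other called genes. There were 17 alternatives, but the filter on mean signal held only 185 of the 208 named genes.

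Signs turned for returned genes, whose difference is near 0, and for 2 called ones. With the mean of probe sets, PERP was 0.014, PDGFRA -0.25, SH3GL3 0.035, INHBA 0.17, SLC35G2 0.10 and HAS2 -0.12. After quantile scaling GLIPR1 was -0.31, VWF -0.12, MUC15 -0.014, LHX5 -0.021, HAS2 -0.11 and NRG1 -0.016. Without the 4 arrays PDZD4 was 0.10, PAMR1 0.22 and SLC35G2 0.090, and with them as a term PAMR1 was 0.15, SLC35G2 0.0098, GLIPR1 -0.051, MUC15 -0.00381 and HAS2 -0.00446. Leaving out 1 array at a time gave ranges of -0.32 to 0.19 for PDZD4, -0.19 to 0.15 for GLIPR1, -0.39 to 0.36 for INHBA, -0.42 to 0.22 for PAMR1, -0.12 to 0.11 for SLC35G2, -0.11 to 0.15 for VWF and -0.073 to 0.19 for LHX5. The cause was not tested. Of the 33 list medians, 18 moved by more than 1.5 times with a pseudocount of 64 (1 turned sign), 11 with a pseudocount of 1 (0 turned), 14 with the mean of probe sets (1 turned), 8 among the upper 60% of genes (2 turned) and 10 with the 4 arrays as a term (4 turned). With 3 pools a group, 1 cell line and no detection calls, small differences of dim genes could not be resolved.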
